A study of Mus musculus with 6 samples.

Results

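The transcription factors that steer activated CD8+ T cells towards effector or memory fates were followed as a group of 10 genes, taken by symbol from the 24559 genes of the deposited table. They were the T-box factors Tbx21 (T-bet) and Eomes, the repressor Prdm1 (Blimp-1), the inhibitors of DNA binding Id2 and Id3, the E-box repressors Zeb1 and Zeb2, and Runx1, Runx2 and Runx3. All 10 were found and all 10 passed the filter on low values. RNA sequencing compared 3 libraries of CD8+ T cells exposed to L-4F, a mimetic peptide of apolipoprotein A1, with 3 libraries given ABCT buffer. Both groups were labelled as primary cultures from the spleen of wild-type C57 BL/6 mice, and the series asks how apolipoprotein A1 affects the immune functions of these cells. The sources used here do not give dose, time, sex, age or the number of mice. Whether the 3 libraries of a group are separate animals is not stated either. The p-values below therefore set a group difference only against the scatter among these libraries, and that scatter may be technical.

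As background, T-bet and Eomes are related T-box activators that switch on interferon-gamma and cytotoxic genes in CD8+ T cells, and T-bet is most active in short-lived effector cells. Id2 and Id3 have no DNA-binding region of their own and hold E proteins off E-boxes. Id2 and Zeb2 are known for effector differentiation, and Id3 and Zeb1 for memory cells. Blimp-1 represses memory genes in terminal effectors. The RUNX proteins, with their partner CBFβ, silence Cd4 and sustain the CD8 programme.

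Promoter sequences are shown for Id2, the gene that rose, for Zeb2, the gene that fell most, and for the RUNX family, whose promoters share a feature. They are from RefSeq on GRCm38.p6. The search covered 14 windows for 9 of the 10 genes, each from 250 bases before to 50 after a start. Zeb1 was left out of this search, so its promoter is not part of the counts for these genes below. Capitals mark an E-box (CANNTG) in Id2 and a RUNX site (TGTGGT, here read as ACCACA on the other strand) in the RUNX genes, with both strands searched. The Zeb2 stretch has no capitals because no E-box was found in it.
Id2, chr12:25096254-25096342, minus strand: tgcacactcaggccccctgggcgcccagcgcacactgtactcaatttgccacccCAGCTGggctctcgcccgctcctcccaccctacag
Zeb2, chr2:45117443-45117692, minus strand: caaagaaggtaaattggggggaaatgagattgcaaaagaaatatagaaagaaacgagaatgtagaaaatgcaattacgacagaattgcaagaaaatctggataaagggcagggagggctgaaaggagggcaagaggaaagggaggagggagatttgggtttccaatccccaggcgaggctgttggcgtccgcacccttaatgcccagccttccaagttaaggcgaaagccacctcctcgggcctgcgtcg
Runx1, chr16:92826025-92826054, minus strand: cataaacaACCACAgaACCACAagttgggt
Runx2, chr17:44814583-44814612, minus strand: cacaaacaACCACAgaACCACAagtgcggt
Runx3, chr4:135120503-135120532, plus strand: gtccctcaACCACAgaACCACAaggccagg

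The first listed start of each RUNX gene held the same pair of RUNX sites, with the 2 bases GA between them. In Runx3 the pair lay before the start, beginning 134 bases upstream. In Runx1 and Runx2 it lay just after the start, from bases 29 and 24. The 14 letters of this pair (ACCACAGAACCACA) were present in 4 of 32851 windows (0.012%): those of Runx1, Runx2 and Runx3, and that of Gm16225, a gene on the opposite strand whose window overlaps the one of Runx3. The letters searched for were those of the RUNX windows themselves, so this low share is not a test of the pair. A single RUNX site was present in 16.8% of all windows and an E-box in 72.3%. None of the 4 Zeb2 windows held an E-box, and the Id2 window held 1, at 196 bases before the start. The ZEB-type site CACCTG, which is also an E-box, was found in 20.2% of all windows and in 1 window each of Prdm1, Runx1, Runx3 and Tbx21. The hypoxia element core ACGTG, searched because the series title names HIF-1α, was found in 19.6% of all windows. Among the 14 windows it was found in both of Runx1, 2 times at the first and 1 time at the other start. These matches describe letters in a window and are not evidence of binding.

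Each library held 25073292 to 31332003 reads. The CD8 genes Cd8a and Cd8b1 summed to 44730 to 45050 normalized reads (read count divided by the library's factor) with buffer and to 50320 to 51970 with L-4F, while Cd4 was at 46.6 ± 2.53 and 29.0 ± 4.45 (SD, n = 3). For the marker counts here, the shares over all genes tested were 18.4% higher and 19.7% lower (limma, adjusted p under 0.05). Natural killer cells use several of the same factors, and 4 of 9 natural killer markers rose (Klra7, Fcer1g, Klrb1c and Klra4) and none fell. Eomes is itself on that list and made up most of its sum, 7760 to 8166 normalized reads with buffer and 8551 to 8696 with L-4F. Ncr1, a defining natural killer gene, was at 54.3 ± 7.57 and 70.4 ± 18.9. Myeloid cells also express Zeb2, and their 6 markers summed to 1458 to 1708 and 1533 to 1605 normalized reads, with none called and Lyz2 at 1043 and 1101. B cell markers summed to 221 to 262 and 309 to 338, with 1 of 4 tested higher (Cd79b). Dendritic cell markers summed to 218.5 to 246 and 186 to 200.2, with 1 of 2 tested lower (Zbtb46, log2 fold change -0.65). Red cell markers summed to 173 to 206 and 257 to 284 with 2 of 3 tested higher, and of 3 genes of gamma delta and innate-like T cells 2 rose and 1 fell (Zbtb16). With the transcript length trend removed, described below, 2 natural killer markers (Klra7 and Fcer1g), Cd79b and both gamma delta genes were called higher. None of the red cell markers was. Zbtb46 was still lower (-0.52, limma adjusted p = 0.0374), and Zbtb16 did not pass (limma adjusted p = 0.0511). The shares over all genes were then 13.1% higher and 13.1% lower. The part of these other cells in the results below was not tested. In bulk RNA fewer cells of a type and less RNA per cell cannot be told apart.

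With L-4F, 4 of the 10 factors were lower and 1 was higher. Zeb2, Runx3, Zeb1 and Runx1 fell, Id2 rose, and Tbx21, Eomes, Prdm1, Id3 and Runx2 did not pass (limma, adjusted p under 0.05 over 14922 genes tested). Across all genes tested 38.2% were called, 18.4% higher and 19.7% lower, so the share of 5 in 10 is not far from the background. The split over all genes was 2747 higher and 2947 lower, and with median centring 2161 and 3630. For 4 of the 10 genes the L-4F and buffer libraries did not overlap, 1 above and 3 below, against 47.6% of all genes (23.2% above and 24.4% below). The median log2 fold change of the 10 was -0.14, against 0.00 over all genes tested. With a smooth trend in transcript length removed from each library, 2 of the 10 were higher (Id2 and Runx2) and 3 lower (Zeb2, Runx3 and Tbx21), against 26.2% of all genes called, 13.1% higher and 13.1% lower. The authors' deposited table listed 4 of the 10 at an FDR under 0.05 (Zeb2, Runx3, Zeb1 and Id2), and 21.3% of its 24559 genes. Runx1 did not reach that threshold there (FDR 0.0763).

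**Figure D1:**
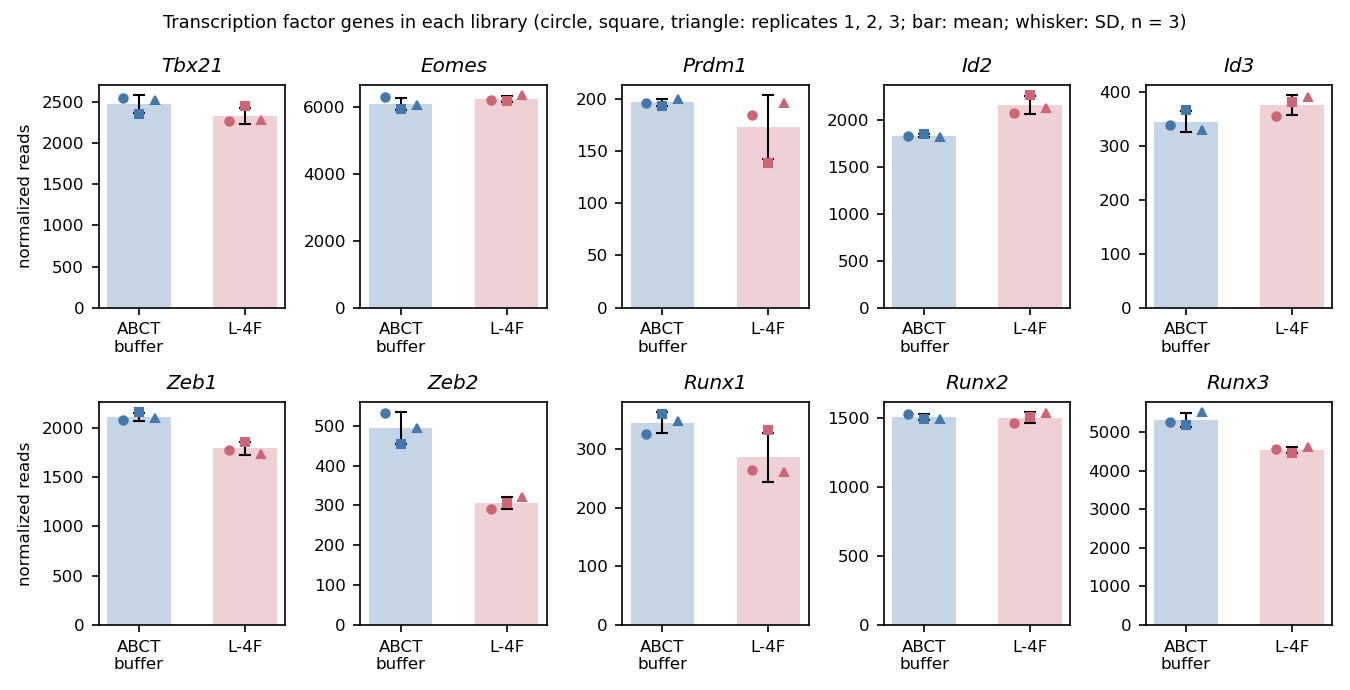
Normalized reads of each gene (linear axes from 0) in the 3 ABCT buffer and 3 L-4F libraries, with bars at the mean and whiskers of 1 SD (n = 3). Zeb2, Zeb1 and Runx3 lie lower in every L-4F library and Id2 higher, and in Prdm1 and Runx1 L-4F library 2 lies apart from the other L-4F libraries.

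Both ZEB repressors fell, and Zeb2 fell most of the 10 genes. Zeb2 (chr2:44983632-45117395, minus strand, GRCm38), which acts with T-bet in terminal effector cells, was at 533, 455 and 495 normalized reads in buffer libraries 1 to 3 and at 291, 306 and 322 in L-4F libraries 1 to 3. Every L-4F library was below every buffer library. The level with L-4F was 37.9% lower (log2 fold change -0.69, SE 0.085, 95% interval -0.86 to -0.51, limma adjusted p = 1.27e-06), and 95.1% of genes tested had a smaller absolute change. The antisense gene Zeb2os was at 2.64 to 6.19 normalized reads across the libraries.

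Zeb1, its relative, was at 2081, 2158 and 2104 normalized reads with buffer and at 1780, 1863 and 1736 with L-4F. The groups did not overlap, and the level was 15.2% lower with L-4F (log2 fold change -0.24, SE 0.041, limma adjusted p = 7.75e-05). Zeb2 and Zeb1 have long transcripts, 9124 and 5801 nt at the longest, and genes with long transcripts were lower with L-4F in these libraries. Among the 1491 tested genes with the longest transcripts, the class that holds Zeb2, the median log2 fold change was -0.28 and 63.7% were called lower. In the class of 1491 genes that holds Zeb1 the median was -0.15 and 43.9% were called lower. With the length trend removed Zeb2 was still lower (-0.39, SE 0.085, limma adjusted p = 0.00155), and Zeb1 did not pass (-0.08, adjusted p = 0.149). Whether transcript length has a part in the fall of Zeb1 was not tested further.

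Both Id genes had higher means with L-4F, and Id2 passed. Id2 (chr12:25093799-25097140, minus strand), the inhibitor that supports effector cells, was at 1826, 1853 and 1817 normalized reads with buffer and at 2077, 2264 and 2132 with L-4F. The lowest L-4F library was above the highest buffer library. Id2 was 17.7% higher (log2 fold change 0.24, SE 0.042, 95% interval 0.15 to 0.32, limma adjusted p = 0.000102). With the length trend removed the value was 0.12 (adjusted p = 0.0417), close to the threshold. Id3 (chr4:136143497-136145755, plus strand), which supports memory cells, was at 339, 367 and 329 normalized reads with buffer and at 355, 382 and 390.1 with L-4F. The groups overlapped, and the difference did not pass (log2 fold change 0.12, 95% interval -0.06 to 0.30, adjusted p = 0.282; -0.05 with the length trend removed). The longest transcripts are of 1969 nt for Id2 and 1278 nt for Id3, and the medians of their length classes were 0.09 and 0.19.

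Of the RUNX genes, Runx3 and Runx1 fell and Runx2 did not pass. Runx3 (chr4:135120652-135177990, plus strand), the main RUNX factor of CD8+ T cells, was at 5255, 5179 and 5510 normalized reads with buffer and at 4556, 4466 and 4615 with L-4F. The groups did not overlap, and the level was 14.4% lower with L-4F (log2 fold change -0.23, SE 0.030, 95% interval -0.29 to -0.16, limma adjusted p = 3.92e-06). Its longest transcript has 3884 nt, and with the length trend removed it was at -0.19 (adjusted p = 6.71e-05). Among the 4 genes that fell, Runx3 had the smallest standard error.

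Runx1 (chr16:92601466-92826149, minus strand), which silences Cd4 in early thymocytes, was at 326, 360.3 and 349 normalized reads with buffer and at 264, 333 and 260.1 with L-4F. L-4F library 2 lay inside the buffer range and the other L-4F libraries below it. The log2 fold change was -0.28 (SE 0.102, 95% interval -0.49 to -0.07, limma adjusted p = 0.0341). The call ended without buffer library 2 (adjusted p = 0.123), buffer library 3 (0.0831), L-4F library 1 (0.125) or L-4F library 3 (0.14). It also ended with the transcript length trend (-0.12, 0.426) or exon length trend (-0.06, 0.703) removed, without the filter on low values (0.0764), with limma-voom on recovered reads (0.0546) and without the trended robust spread (0.12).

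Runx2 (chr17:44495987-44814797, minus strand), linked to long-lived memory cells, was at 1528, 1488 and 1490 normalized reads with buffer and at 1459, 1507 and 1533 with L-4F. The groups overlapped, with a log2 fold change of -0.002 (95% interval -0.09 to 0.09, adjusted p = 0.978). Its longest transcript has 6463 nt, in the class whose median was -0.28, and with the length trend removed Runx2 was higher (0.19, SE 0.044, limma adjusted p = 0.0024). Supt3, which overlaps Runx2 on the opposite strand, was at 240.2 to 271 normalized reads with buffer and 286 to 349 with L-4F. The libraries were strand-specific, but the sources used here do not say how strand entered the counting.

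The T-box factors showed no difference that passed. Tbx21 (chr11:97098071-97115331, minus strand) was at 2548, 2349 and 2524 normalized reads with buffer and at 2271, 2446 and 2280 with L-4F. Buffer library 2 was below L-4F library 2, so the groups overlapped. The log2 fold change was -0.08 (SE 0.042, 95% interval -0.17 to 0.002, limma adjusted p = 0.12). Tbx21 was called lower with the transcript length trend (-0.14, 0.0144) or exon length trend (-0.19, 0.00154) removed, with median centring (-0.12, 0.0191), without buffer library 2 (-0.12, 0.0462) and without L-4F library 2 (-0.12, 0.0327).

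Eomes (chr9:118478212-118486132, plus strand) was at 6288, 5950 and 6058 normalized reads with buffer and at 6211, 6176 and 6359 with L-4F. The groups overlapped (log2 fold change 0.04, 95% interval -0.02 to 0.09, limma adjusted p = 0.353), and of the 19 other settings Eomes passed in 1, quantile normalization (0.07, 0.0395). An antisense gene, Gm33460, was at 32.6 to 52.0 normalized reads.

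Prdm1 (chr10:44437177-44528501, minus strand), the gene of Blimp-1, had the fewest reads, at 196, 193 and 200.03 normalized reads with buffer and at 185, 138 and 196 with L-4F. L-4F library 2 was low, and L-4F library 3 lay within the buffer range. The log2 fold change was -0.20 with a wide interval (SE 0.129, 95% interval -0.47 to 0.07, limma adjusted p = 0.246), and it was -0.05 without L-4F library 2. The interval holds both 0 and a fall of the size measured for Runx3.

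**Figure D2:**
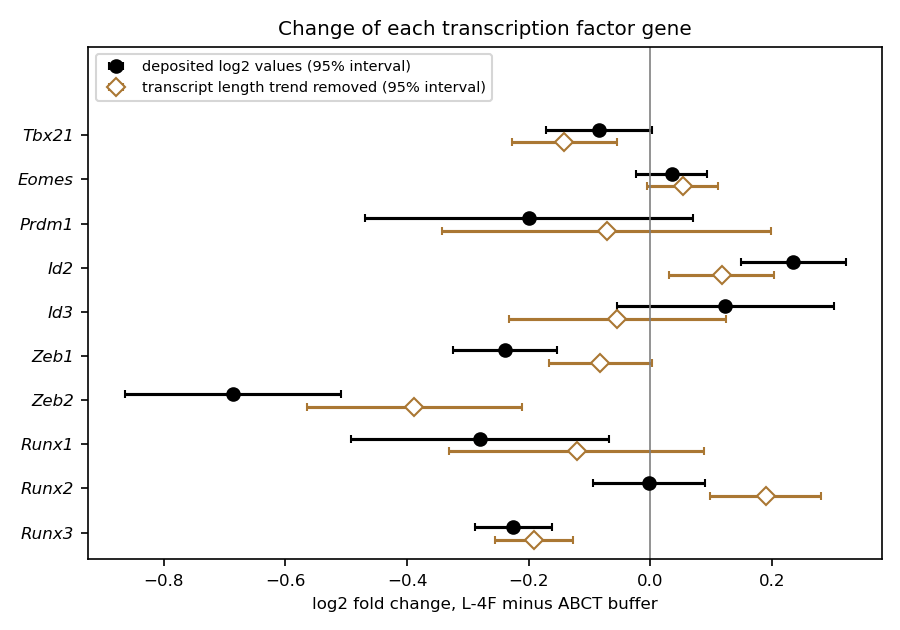
Log2 fold change of each gene, L-4F minus ABCT buffer, from the deposited values (filled circles) and with the transcript length trend removed (open diamonds), both with 95% intervals. Zeb2 and Runx3 lie below 0 and Id2 above 0 in both, the intervals of Zeb1 and Runx1 include 0 once the trend is removed, and Runx2 moves from -0.002 to 0.19.

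The levels of the 10 genes were compared as normalized reads per kilobase of the longest transcript. With buffer the order of mean levels was Eomes (1713), Runx3 (1368), Tbx21 (994), Id2 (930.3), Zeb1 (365), Id3 (270.0), Runx2 (232), Runx1 (58.9), Zeb2 (54.2) and Prdm1 (37.2). Averaged over all 6 libraries, Eomes was above 92.5% of genes tested on this scale, and Prdm1 above 22.0%. Neighbours in the buffer order did not overlap between their buffer libraries, except Runx1 (55.6 to 61.5) with Zeb2 (49.8 to 58.4). Tbx21 and Id2 stood close with buffer, at 944 to 1024 and 923 to 941 per kilobase. With L-4F their order was reversed, Id2 at 1055 to 1150 and Tbx21 at 913 to 983. The order of the 10 genes depends on the length used. By summed exon length Prdm1 (35.2) stood above Runx1 (28.7) and Zeb2 (24.8) with buffer. Id2 (751) and Tbx21 (994) kept their buffer order by that length but stood farther apart. Levels with L-4F were not computed by exon length, so the reversal of Id2 and Tbx21 is shown by the longest transcript alone. With L-4F the level of Zeb2 per kilobase (31.9 to 35.2) lay below that of Runx1 (44.4 to 56.8) and within the range of Prdm1 (26.2 to 37.0).

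**Figure D3:**
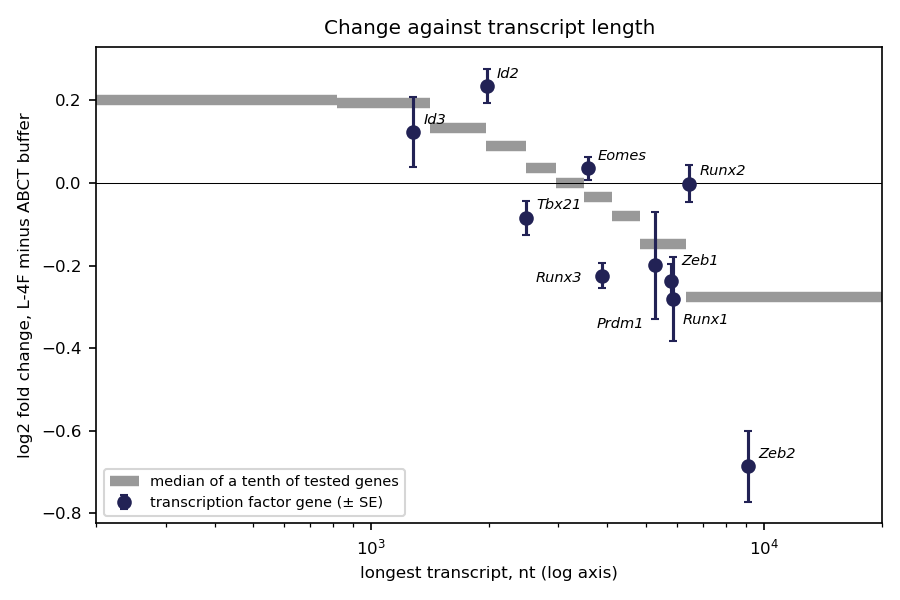
Log2 fold change (L-4F minus ABCT buffer, whiskers ± SE) of each gene against its longest transcript on a log axis, with grey bars at the median of 10 classes of tested genes ranked by that length (outer bars cut at the axis ends). The bars go from 0.20 for the shortest to -0.28 for the longest transcripts. Zeb2, Runx3, Runx1, Tbx21, Zeb1, Id3 and Prdm1 lie below the bar of their class, and Id2, Runx2 and Eomes above theirs.

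Ratios of related genes within a library do not move with library scaling, and 5 were compared. The ratio of Zeb2 to Zeb1 was 0.256, 0.211 and 0.236 with buffer and 0.164, 0.165 and 0.186 with L-4F. All L-4F libraries were below all buffer libraries, a log2 difference of -0.45 (-0.31 with the length trend removed). Its exact two-sided permutation p was 0.1, which is the floor for 3 against 3 libraries, and 0.25 adjusted over the 5 ratios.

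The other ratios overlapped between the groups. Tbx21 to Eomes was 0.405, 0.395 and 0.417 with buffer and 0.366, 0.396 and 0.359 with L-4F (log2 difference -0.12, exact p = 0.2; -0.19 with the length trend removed, exact p = 0.1). Id2 to Id3 was 5.37, 5.04 and 5.51 against 5.84, 5.91 and 5.45 (0.11, exact p = 0.2; 0.17 with that trend removed, exact p = 0.1). Without the trend the libraries of these 2 ratios no longer overlapped. Runx2 to Runx1 was 4.68, 4.12 and 4.27 against 5.52, 4.52 and 5.88 (0.28, exact p = 0.2), with 1 crossing pair. Runx3 to Runx1 was 14.3 to 16.1 against 13.4 to 17.7 (0.06, exact p = 0.6), and its sign turned with the length trend removed (-0.07). No ratio could reach 0.05 by this permutation test, and the adjusted values of these 4 were 0.25, 0.25, 0.25 and 0.6.

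**Figure D4:**
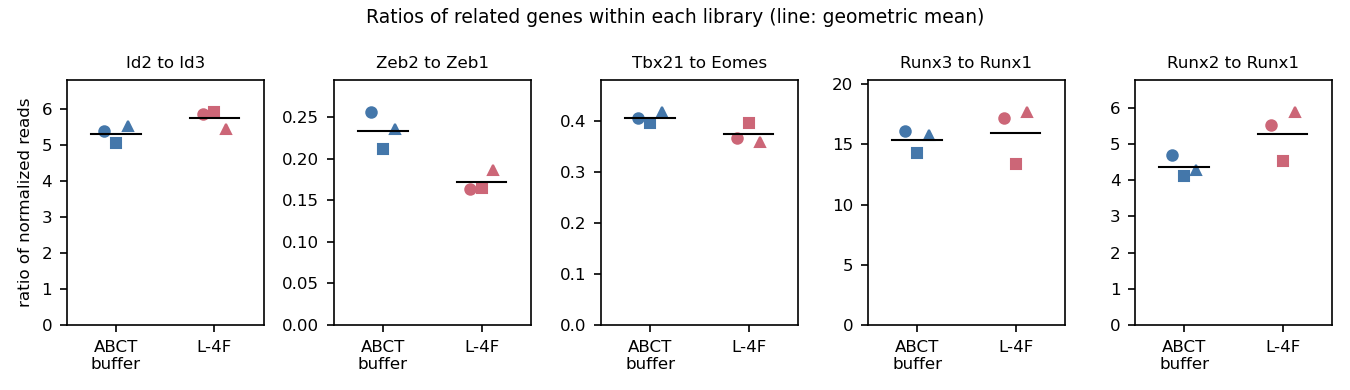
Ratio of normalized reads of 5 pairs of related genes in each library (circle, square and triangle for replicates 1, 2 and 3; line at the geometric mean; linear axes from 0). Zeb2 to Zeb1 is the ratio whose L-4F libraries (0.164 to 0.186) all lie below the buffer libraries (0.211 to 0.256).

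Partners, inducers and targets of these factors were read from the same fit, in lists chosen with earlier results of these data known. For the list counts that follow, the shares over all genes tested were 18.4% higher and 19.7% lower. With the length trend removed these shares were 13.1% and 13.1%. Of 20 inducers that act upstream, 12 fell and 4 rose (median log2 fold change -0.22, against 0.00 over all genes), and with the length trend removed 12 were lower and 3 higher (median -0.13). Il12rb2, the signalling chain of the interleukin-12 receptor that induces T-bet, had means of 4743 normalized reads with buffer and 3159 with L-4F (-0.59, SE 0.045, limma adjusted p = 4.06e-08). Irf4, induced by the antigen receptor (-0.50), Mtor, a growth kinase (-0.52), and Il2ra, the interleukin-2 receptor alpha chain (-0.29), also fell. Il2rg, the common gamma chain (0.24), and Ifngr1, an interferon-gamma receptor chain (0.23), rose. These 6 kept their calls in all 19 other settings, with Il12rb2 at -0.62, Irf4 at -0.40, Mtor at -0.24 and Il2ra at -0.22 once the length trend was removed.

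Of the 3 E proteins, which Id2 and Id3 bind, 2 fell and none rose. Tcf12, the gene of HEB, was at 4474 ± 104 normalized reads with buffer and 3678 ± 26.5 with L-4F (SD, n = 3), a log2 fold change of -0.28 (limma adjusted p = 1.76e-07). Tcf3, the gene of E2A, fell by less (-0.13, adjusted p = 0.00875), and Tcf4 was at 108 and 97.3 normalized reads (-0.15, 0.508). Removing the transcript length trend left Tcf12 at -0.10 and Tcf3 at -0.17 and put Tcf4 at 0.13. The call of Tcf12 ended once the exon length trend was taken out (-0.003, adjusted p = 0.956), and that of Tcf3 without buffer library 1 (0.0647) or without trended robust variances (0.0697).

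Of 8 genes of the RUNX partner and of corepressor families 1 rose and 1 fell (median -0.10). With the length trend removed 2 were higher and none lower (median 0.07). Cbfb, the partner of RUNX proteins, was at 5429 and 5292 normalized reads (-0.04, limma adjusted p = 0.386; 0.01 under quantile normalization). The TLE family gene Tle5 rose (0.19) and Tle4 fell (-0.17). Tle4 was not called in 4 of 19 other settings, among them without buffer library 2 (limma adjusted p = 0.0743). Tle3 (-0.08), Cbfa2t2 (-0.11) and Tle2 (-0.30) did not pass, and Tle3 was called higher with the length trend removed (0.20, limma adjusted p = 8.78e-05). Of 6 ZEB corepressor partners 3 rose and 1 fell. The histone deacetylase genes Hdac1 (0.19) and Hdac2 (0.22) rose and the corepressor Rcor1 fell (-0.32). Ctbp1 rose (0.07, adjusted p = 0.044), a call that ended in 12 of 19 other settings, including each library left out (0.0656 to 0.151), and Kdm1a (0.04) and Ctbp2 (0.003) did not pass.

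Of 17 effector genes under T-bet or Eomes 7 rose and 1 fell (median 0.13), and with the length trend removed 3 were higher and 5 lower (median 0.03). The median longest transcript of this list is 1436 nt, against 2963.5 nt over genes tested. Gzma, a granzyme (0.52), Nkg7, a granule protein (0.35), the chemokine Ccl5 (0.37) and the lectin receptors Klrd1 (0.36) and Klrk1 (0.27) rose, and the interleukin-18 receptor gene Il18r1 fell (-0.14). Ccl5 (0.12, adjusted p = 0.0817) and Klrd1 (0.13, 0.0864) did not pass with the transcript length trend removed. Ifng, the interferon-gamma gene that T-bet activates, was at -0.06 (limma adjusted p = 0.13). It was called lower in 4 of 19 other settings. These were the transcript (-0.25, limma adjusted p = 2.8e-06) or exon length trend removed (-0.26, 1.32e-06), median centring (-0.10, 0.0125) and total-read scaling (-0.08, 0.0462). Gzmb (0.02, adjusted p = 0.333), Prf1 (-0.06, 0.42) and Klrg1, a marker of short-lived effectors at 19.4 and 27.5 normalized reads (0.50, 0.208), did not pass. Gzmb was called lower under quantile normalization (-0.14, 8.59e-07) and after removal of the transcript (-0.14, 1.26e-05) or exon length trend (-0.17, 6.9e-07).

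Of 9 genes under RUNX3 or RUNX1 2 rose and 3 fell. Cd8b1 (0.34) and Cd8a (0.12), the coreceptor genes that RUNX proteins sustain, rose, although Cd8a was at -0.05 under quantile normalization. Cd4, which they silence, fell (-0.68, SE 0.239, limma adjusted p = 0.0294), a call that ended without buffer library 1 (0.1), 2 (0.0724) or 3 (0.0568) or L-4F library 3 (0.0937). Il7r, the interleukin-7 receptor gene (-0.23), and the integrin gene Itgal (-0.24) fell, and Zbtb7b, the CD4 lineage factor (-0.16), did not pass.

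Of 8 tested genes that Blimp-1 represses 1 rose and 1 fell, and with the length trend removed 1 was higher and 2 lower. Myc, a transcription factor of growth, fell (-0.17), and Bcl6 (-0.26), Il2 (-0.20), Spib (0.31) and Ciita (-0.14) did not pass. Of 10 naive and memory factors 2 rose and 4 fell (median -0.10), and with the length trend removed the balance turned, to 4 higher and 2 lower (median 0.02). Klf2, a factor of quiescence (0.34), rose and Bach2, which restrains effector genes (-0.49), fell, both in all 19 other settings. Lef1 (0.08) rose and Foxp1 (-0.09) fell, and each call ended in 8 of 19 settings, among them the loss of L-4F library 1 (adjusted p = 0.125 and 0.0619). Satb1 (-0.15) and Ets1 (-0.11) fell, and with the transcript length trend removed Satb1 was at 0.03 and Ets1 at 0.01. Foxp1 was called higher there (0.13, limma adjusted p = 0.00233), and both Foxp1 (0.16, 0.000461) and Satb1 (0.17, 3.12e-05) were called higher after removal of the trend in exon length. Tcf7, the gene of TCF-1, was at -0.04 (limma adjusted p = 0.161) and was called lower in 5 of 19 other settings. These were the transcript (-0.10, limma adjusted p = 0.00177), exon length (-0.13, 8.49e-05) or GC trend removed (-0.06, 0.0423), median centring (-0.08, 0.00772) and total-read scaling (-0.06, 0.0447).

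Among 11 surface markers 3 rose and 3 fell, and with the length trend removed 2 were higher and 5 lower. Ly6c2 (0.47) and Cxcr3 (0.16) were among those that rose, and Itga4 (-0.57), Cd44 (-0.24) and Il7r fell. Cxcr3 did not pass with the transcript length trend removed (adjusted p = 0.805) and was at -0.02 with the exon length trend removed. Of 10 factors of other T cell lineages 2 fell and none rose, with 1 lower once the length trend was removed. Ahr fell (-0.48), but not with the transcript length trend removed (adjusted p = 0.0594), and the call of Zbtb32 (-0.09) ended in 7 of 19 settings, among them the loss of buffer library 2 (0.141). Foxp3 (0.33), Gata3 (-0.19) and Tox (-0.16) did not pass.

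**Figure D5:**
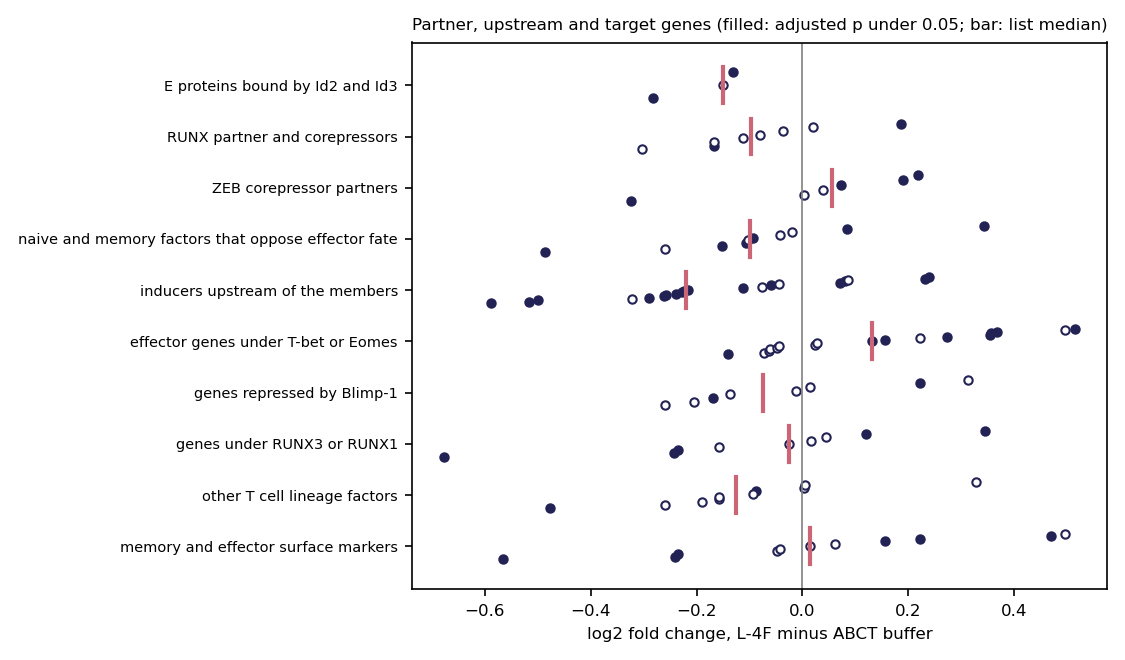
Log2 fold change (L-4F minus ABCT buffer) of every tested gene in 10 lists of partners, inducers and targets, filled where the limma adjusted p was under 0.05, with a bar at the list median. The inducers have the lowest median (-0.22) and the effector genes the highest (0.13), and every list except the E proteins and the other lineage factors holds called genes on both sides of 0.

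The genes whose profile over the 6 libraries lay nearest to that of a called factor were found by the Euclidean distance of mean-centred log2 values. For Zeb2 they were Kcna2 (distance 0.073), Ep300 (0.127) and Rreb1 (0.131). For Id2 they were Zfp1 (0.0259), Btg1 (0.0294) and Smim7 (0.0416), and for Runx3 Sec24b (0.0327), Scap (0.0341) and Senp1 (0.0405). Zeb1 lay nearest to Rasa1 (0.0199), with Baz1a also near (0.0382), and Runx1 to Pnldc1 (0.0809), Gadd45b (0.0898) and Gm2026 (0.116). The nearest gene of Zeb2 and of Runx1 was farther away than any of those listed for Id2, Zeb1 or Runx3.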

How the data were processed

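Per the labels' protocols, strand-specific TruSeq libraries were made from total RNA. The submitters' processing notes name FastQC 0.11.5 and 0.11.2 and StringTie 1.3.1c without a role, and no aligner, build or annotation is named. The authors deposited log2 values, which were found to be log2 of normalized reads plus 1: dividing out library factors of 0.899 to 1.13 returned whole reads for 100% of genes within 0.01 read. The authors' deposited p-values and FDR were copied.

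Genes with at least 10 normalized reads in at least 3 libraries (14922) entered a limma 3.58.1 fit (R 4.3.3, statmod 1.5.0) of the deposited log2 values, with group as its single term, trended robust variances and p-values adjusted by Benjamini-Hochberg across these genes. The pseudocount of 1 understates changes of low genes. Gene positions and lengths were those of GENCODE M21 (GRCm38), matched by identifier for 24513 genes, and may differ from the authors' annotation. The length trend was a robust loess (span 0.3) in each library, for 14910 tested genes.

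Members and lists were chosen with earlier results of these data known. Named were all 10 members, up to 6 genes per list by smallest adjusted p, a set of further regulators and effector genes whatever their result, and the 3 nearest genes of each called member; a few genes so named are not reported here. The 19 other settings changed the normalization, filter, pseudocount, variance model, length or GC trend, replicate block or libraries used. Within groups, libraries differed by 2.34 to 3.05 times counting noise, so none was a copy. On simulated reads for this comparison (14922 genes, 200 changed) the fit recovered 35.8% of log2 changes of 0.25, 68.7% of 0.5 and 90.9% of 1, with 9 false calls. Far fewer genes were changed there than the 5694 called in the data, so these shares need not hold for the data.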

Additional observations from a re-analysis of the deposited data

How the results depend on the processing

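Zeb2, Runx3 and Id2 kept their call in each of 19 other settings, Zeb1 in 17 and Runx1 in 10. Zeb1 did not pass after removal of a trend in transcript (-0.082) or exon (-0.057) length. Id3 passed in none of 19, and Prdm1 in none of the 18 that kept it (a filter at 10 CPM removed it). From 4 to 6 members were called in every setting, leaving out single libraries included. Under quantile normalization and with the transcript or exon length trend removed 2 members were higher, against 1. With the transcript length trend removed 1948 genes were lower, against 2947. The sign turned for Eomes with median centring (-0.0051), for Id3 with the transcript (-0.054) or exon length trend removed (-0.048), and for Runx2 with these removed (0.190 and 0.149), while leaving out single libraries put Runx2 between -0.018 and 0.018. Among other genes it turned with the transcript and exon length trends removed for Tcf4 (0.130 and 0.216), Satb1 (0.029 and 0.166), Ets1 (0.0099 and 0.037), Foxp1 (0.132 and 0.158) and Gzmb (-0.137 and -0.167), and with the exon length trend removed for Cxcr3 (-0.020). It also turned under quantile normalization for Cbfb (0.015), Cd8a (-0.046) and Gzmb (-0.139), and with median centring for Gzmb (-0.017). The ratio of Runx3 to Runx1 turned with the transcript (-0.070) and exon length trend removed (-0.133), and leaving out single libraries put it between -0.018 and 0.183. The cause was not tested.

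The deviations of same-numbered libraries had correlations of 0.0732, 0.0805 and 0.387. The libraries numbered 3 correlated best with each other, and those numbered 1 and 2 did not. With 3 libraries per group these values cannot decide whether the replicate numbers pair the libraries. With the replicate block 5521 genes and 5 members were called, against 5694 and 5. The count tests that had been planned were not run, and limma-voom was the test applied to recovered reads. Genes with few reads, such as Spib, Klrg1 and Prdm1, have wide intervals.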
